A study of Mus musculus with 24 samples.

Results

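The SLC25 carriers were followed through the first days of acute graft-versus-host disease in mice, in CD8+ OT-I T cells. The members were all gene probes on the array whose gene name begins with Slc25a and a number. This gave 58 of 39429 gene probes, for 47 of 30199 gene names, and RefSeq gave the same symbols for all of them (56 probes by accession, 2 by symbol). The rule uses gene names alone, but the family was chosen with earlier results of these data known.

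The arrays were 24 one-colour Agilent arrays. The 4 graft arrays (day 0) held CD8+ OT-I T cells of the graft, and blood, liver, lung and small intestine gave 5 arrays each of the same transferred cells on day 4. OT-I cells carry 1 transgenic T cell receptor for an ovalbumin peptide. The donor OT-I cells were CD45.1, of the strain C57BL/6-Tg(TcraTcrb) 1100Mjb/J, and all other graft cells and the recipients carried CD45.2. Recipients were m-act OVA (strain C57Bl/6-Tg(CAG-OVA)-916Jen/J), whose ovalbumin transgene is driven by the CAG promoter in most tissues, so the mismatch is a single model antigen. They received 11 Gy in 2 fractions, then bone marrow and splenocytes. All groups were female, 8 to 16 weeks old, selected with beads for CD45.1, and amplified in 2 rounds from 300 pg of RNA. Whether samples came from separate mice is not given in the sources used here, and the p-values cover only their spread.

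SLC25 proteins are the largest group of metabolite transporters of the inner mitochondrial membrane. Each is built from repeats of paired membrane helices and exchanges or imports a small molecule, such as ADP for ATP, phosphate, citrate, aspartate, nucleotides, vitamins or iron. When a resting T cell is activated it enlarges its mitochondria and makes ATP, nucleotides and heme for division, and these carriers connect that matrix chemistry with the cytosol. Some family members sit elsewhere: Slc25a17 is in peroxisomes and Slc25a46 in the outer mitochondrial membrane.

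Quality values of the whole series were as follows. Between 22.6% and 38.6% of gene probes on an array were well above background, a flag set by the scanner software, and precision is limited by how many arrays there were. Within groups, correlations across probes ran from 0.95 to 0.97 in graft and 0.89 to 0.97 in blood. They ran from 0.88 to 0.98 in liver, 0.86 to 0.96 in lung and 0.72 to 0.97 in intestine. Lung 4 and intestine 4 stood apart on the first 2 principal components. Intestine 4 was the lowest intestine array for 13 of the 21 tested carrier genes, and lung 4 the lowest lung array for 11 of 21. All 8 CD8 T cell markers, Cd8a, Cd8b1 and Cd3e among them, were well above background on all arrays. The 4 graft arrays were on a slide of their own and each of the other 5 slides held 1 array of every day 4 site, so slide and group cannot be told apart for any comparison with the graft. In bulk samples, fewer cells of a type and less RNA per cell cannot be told apart either.

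Detection came first, because many carriers gave no signal. A total of 14 genes had a probe well above background on all 24 arrays, among them Slc25a3, Slc25a4, Slc25a5, Slc25a11, Slc25a12, Slc25a13, Slc25a17, Slc25a28, Slc25a33, Slc25a38, Slc25a43, Slc25a46 and Slc25a51. No probe was well above background on any array for 17 genes: Slc25a2, Slc25a10, Slc25a16, Slc25a18, Slc25a21, Slc25a22, Slc25a23, Slc25a27, Slc25a30, Slc25a34, Slc25a35, Slc25a41, Slc25a42, Slc25a47, Slc25a48, Slc25a53 and Slc25a54. Between 19 and 34 of the 58 member probes were detected per array, with a median of 23 in graft samples, 26 in those from blood or liver and 25 in those from lung or intestine. The median number of member probes detected therefore differed little between groups, and intestine held the widest range, 24 to 34. Single genes could still differ, as Slc25a1 and Slc25a24 did.

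**Figure D1:**
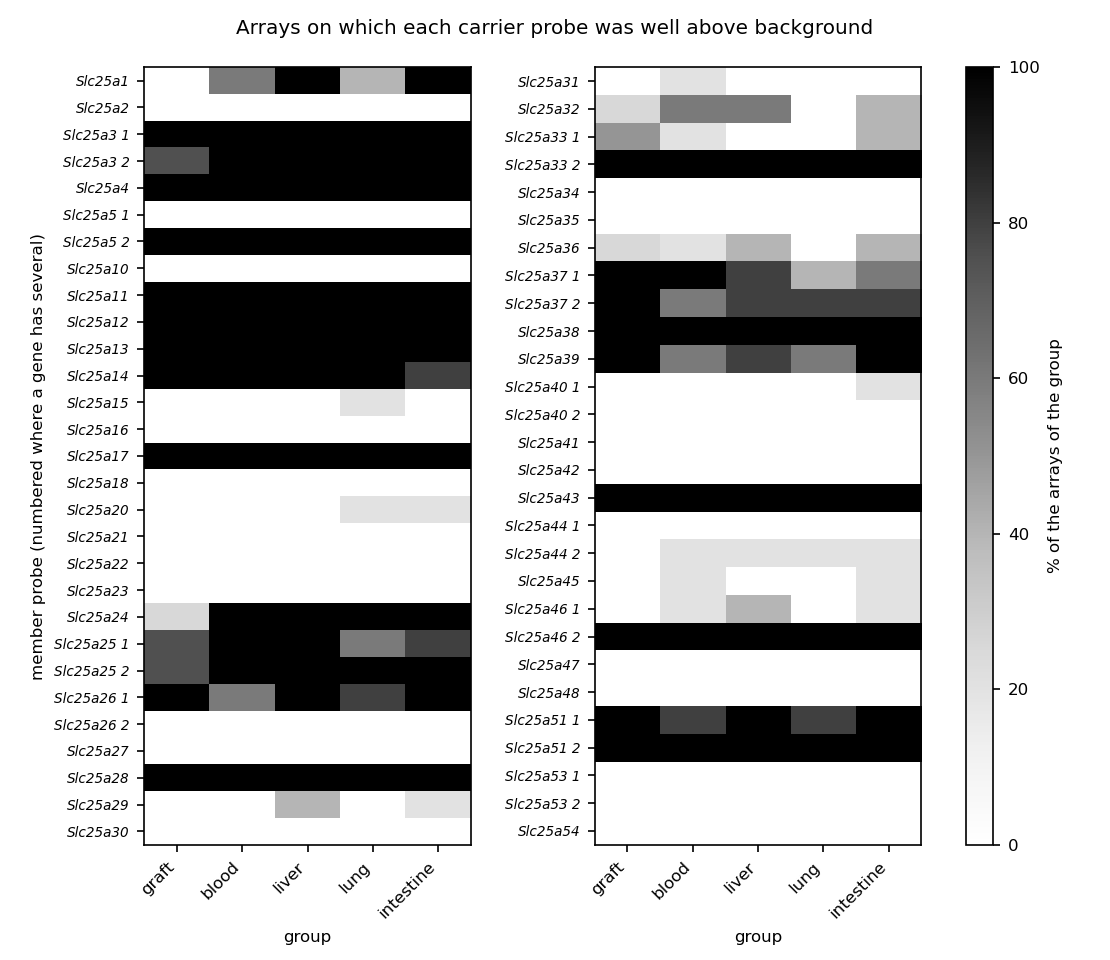
Share of the arrays of each group (graft n = 4, other groups n = 5) on which a probe was well above background, for 57 of the 58 member probes, from white (none) to black (all). Of the genes drawn, 13 have a solid black row and were detected on all 24 arrays, Slc25a1 is white in the graft only, and the 17 genes listed above are white throughout.

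A probe was tested where it was well above background on all, or all but 1, arrays of at least 1 group. This kept 25 member probes of 21 genes, 43.1% of member probes, against 33.7% of all gene probes (13278). A further 9 genes were detected on some arrays and not tested. Slc25a32, a folate carrier, was detected on 9 of 24 arrays, Slc25a36, a pyrimidine nucleotide carrier, on 6, and the branched-chain amino acid carrier Slc25a44 on 4. Slc25a29 (basic amino acids) was on 3, Slc25a20 (acylcarnitines) and Slc25a45 on 2 each, and Slc25a15 (ornithine), Slc25a31 and Slc25a40 on 1 each. Slc25a20 brings fatty acids bound to carnitine into the matrix, so this step had no measured level on 22 arrays.

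A level is here log2 of the probe's processed signal minus the 75th percentile of its array, so 0 is the 75th percentile. A level serves to compare arrays for 1 probe, never probes with each other. Differences are log2 differences from 1 limma model over all tested probes of all 24 arrays, given with their standard error (SE) and a Benjamini-Hochberg adjusted p over the 13278 probes. A gene was called at an adjusted p under 0.05. Where a gene had several tested probes (4 genes), the one with the highest mean over the 24 arrays stood for it. As most arrays were day 4, this choice can favour a probe that is higher on day 4.

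Against the graft, the day 4 samples (mean of the 4 sites) had higher transcripts for 12 of the 21 tested genes and lower for 3, while 6 were not called. Among all tested probes 55.3% were called, 33.8% higher and 21.4% lower, and for the carriers the shares were 57.1% and 14.3%. The median difference was 0.93 for the carriers and 0.18 for all tested probes. The genes that rose carry ATP, phosphate, citrate, cofactors, pyrimidine nucleotides and aspartate. Those that fell were Slc25a37 (iron), Slc25a39 (glutathione) and Slc25a26 (S-adenosylmethionine). Slc25a1 (0 of 4 graft arrays detected) and Slc25a24 (1 of 4) passed the signal filter through day 4 arrays alone, which favours a difference, and the counts describe the tested genes, not the family.

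The scale mattered for the size of these counts. The median of all tested probes lay at 0.18 with the main scaling, -0.23 when arrays were scaled to the 75th percentile of detected probes, -0.36 when scaled to the median of detected probes, -0.06 after quantile normalisation and 0.25 with normexp background. With these 4 alternatives the carriers called were 9 higher and 3 lower, 8 and 5, 11 and 4, and 12 and 2. Of all calls, 61.2% were higher with the main scaling, and 39.1%, 35.2%, 49.6% and 68.4% with the alternatives in that order. Of the 15 called carriers, 10 kept their direction and their call under every alternative that gave a value, among them Slc25a1, Slc25a3, Slc25a5, Slc25a17, Slc25a24, Slc25a25, Slc25a33, Slc25a37 and Slc25a39.

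**Figure D2:**
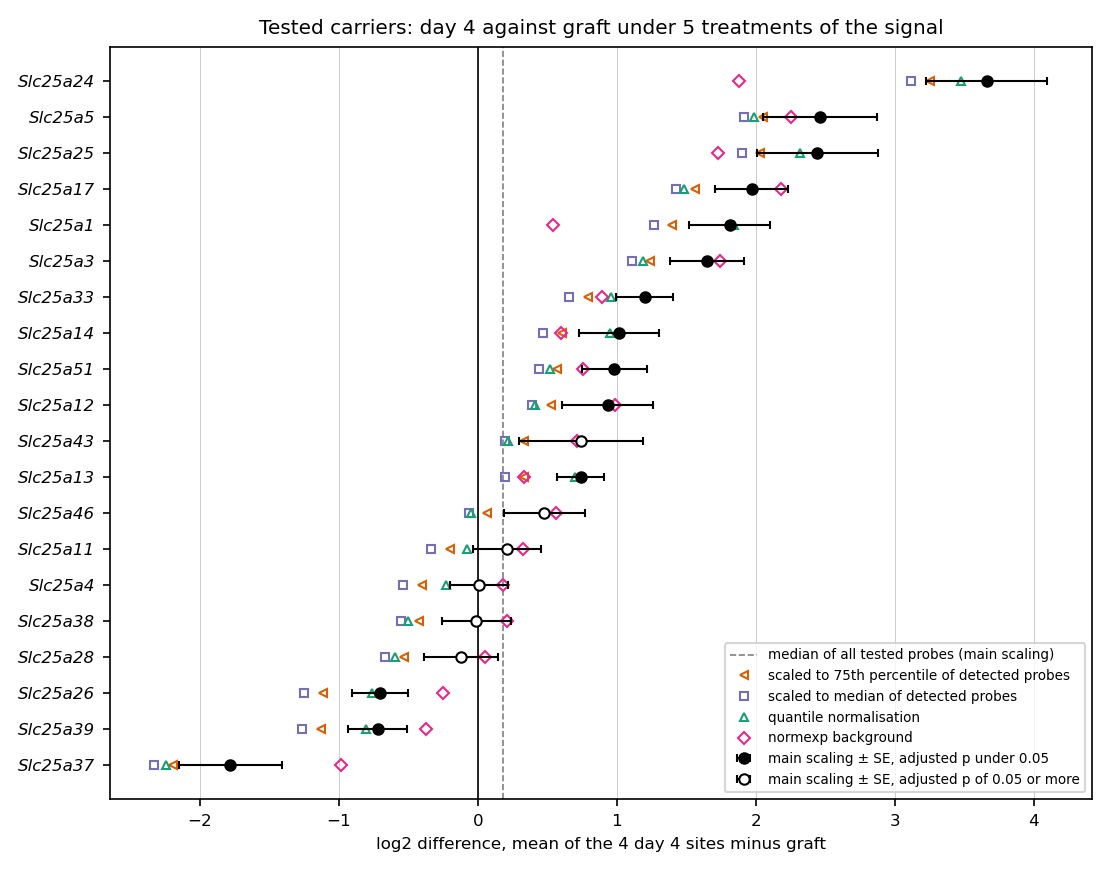
Log2 difference between the mean of the 4 day 4 sites and the graft for 20 of the 21 tested carriers; black points with bars are the main estimate ± SE (filled where the adjusted p was under 0.05), open coloured markers are 4 other treatments of the signal, and the dashed line is the median of all tested probes. With the main scaling Slc25a24 lies at 3.66 and Slc25a37 at -1.78, and with normexp background at 1.88 and -0.99; Slc25a4, Slc25a11, Slc25a28, Slc25a38 and Slc25a46 cross 0 between treatments.

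The ADP/ATP carriers exchange ATP made in the matrix for cytosolic ADP. Slc25a5 encodes the form of proliferating cells and Slc25a4 the form of heart and muscle. Slc25a5 (probe at chrX:34338580-34338639, + strand, mm9) had levels of 1.62, 1.40, 1.09 and 1.94 in the 4 graft samples. Its day 4 levels ran from 2.73 to 5.32 with a median of 3.91, so every day 4 array lay above every graft array. The graft mean was 1.51 ± 0.36 (SD, n = 4), and the site means (n = 5) were 4.35 ± 1.04 for blood, 4.19 ± 0.78 for liver, 3.61 ± 0.58 for lung and 3.73 ± 0.91 for intestine. The difference was 2.46 ± 0.41 (SE), a 5.50-fold rise (limma adjusted p = 3.08e-05). The other Slc25a5 probe, which the array's annotation places at chr14:12013348-12013407 on mm9, was not well above background on any array.

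Slc25a4 behaved differently. Graft levels were 5.12, 5.35, 5.54 and 5.67, and day 4 levels ran from 4.19 to 5.89 with a median of 5.58, so the groups overlapped. The difference was 0.01 ± 0.21 (limma adjusted p = 0.977), and it had the opposite sign, -0.54 (adjusted p = 0.00295), when arrays were scaled to the median of detected probes. Intestine 4 (4.19) and intestine 2 (4.48) were the lowest of the 24 arrays. Slc25a31, the germ cell form, was detected on 1 array.

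Because both probes are read on the same array, a constant subtracted from the array cancels in their ratio, while quantile normalisation and background correction can still move it. The level of such a ratio is not relative abundance, since probes differ in brightness, but its change between groups is a measurement. The 4 ratios were chosen after the data were examined, which no adjustment over the 4 covers. Their p-values are therefore no independent support. The log2 ratio of Slc25a5 to Slc25a4 was -3.50, -3.95, -4.45 and -3.74 in the 4 graft samples. On day 4 it ran from -2.75 to -0.35 with a median of -1.40, and all 20 arrays lay above every graft array. The mean difference was 2.45 (exact permutation test, two-sided, p = 0.000188, the smallest p that 4 against 20 arrays allow; Benjamini-Hochberg adjusted p = 0.000376 over the 4 ratios computed), and it was 2.22 after quantile normalisation and 2.07 with normexp background. Mean ratios on day 4 were -1.34 for blood, -1.54 for liver, -1.72 for lung and -1.24 for intestine.

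The ATP-Mg/phosphate carriers change the size of the matrix adenine nucleotide pool and are regulated by calcium. Slc25a24 was higher on day 4, with a difference of 3.66 ± 0.44 (limma adjusted p = 4.15e-07) whose graft side was mostly below background. Its probe passed the signal filter through day 4 arrays alone, so this p is no independent support for the rise. Its graft levels were -1.38, -1.46, -3.36 and 0.09, of which 1 array was well above background. Day 4 levels ran from 0.29 to 3.14 with a median of 2.21, on 20 of 20 arrays well above background and above every graft array. Site means were 2.38 ± 0.54 for blood, 2.43 ± 0.55 for liver, 2.23 ± 0.31 for lung and 1.49 ± 1.09 for intestine. The size depended on how dim signals were treated: with normexp background it was 1.88, below Slc25a5 (2.26) and Slc25a17 (2.18).

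Slc25a25, its paralogue, had graft levels of -0.09, -0.05, 0.28 and -0.47 and day 4 levels from 0.29 to 3.79 with a median of 2.37, with no overlap. The difference was 2.44 ± 0.44 (limma adjusted p = 6.78e-05). The spread within a site was wide: liver ran from 0.29 to 3.78 (2.04 ± 1.30, SD, n = 5). The other probe of the gene, which lies nearby on chromosome 2, was not called (0.52 ± 0.32, adjusted p = 0.171), and its groups overlapped. Its graft levels were -0.23, -0.19, -0.09 and 0.25, so the day 4 levels decided which probe stood for the gene. The rise of Slc25a25 thus rests on 1 of its 2 probes. The log2 ratio of Slc25a24 to Slc25a25 overlapped between the groups, and with Slc25a24 above background on 1 of 4 graft arrays its change is not measured. The other genes of this group, Slc25a23 and Slc25a41, were not detected on any array.

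Slc25a3 imports the phosphate that ATP synthase joins to ADP. Its graft levels were 3.30, 3.19, 3.55 and 3.46, and day 4 levels ran from 3.81 to 5.77 with a median of 5.15. The groups did not overlap, although intestine 4 (3.81) and lung 4 (3.99) came close to the graft. The difference was 1.65 ± 0.27 (limma adjusted p = 2.08e-05), and the other probe gave 2.14 ± 0.21 (adjusted p = 3.28e-08), also without overlap. Means were 5.21 ± 0.48 for blood, 5.28 ± 0.27 for liver, 4.74 ± 0.48 for lung and 4.87 ± 0.75 for intestine, against 3.37 ± 0.16 in the graft.

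**Figure D3:**
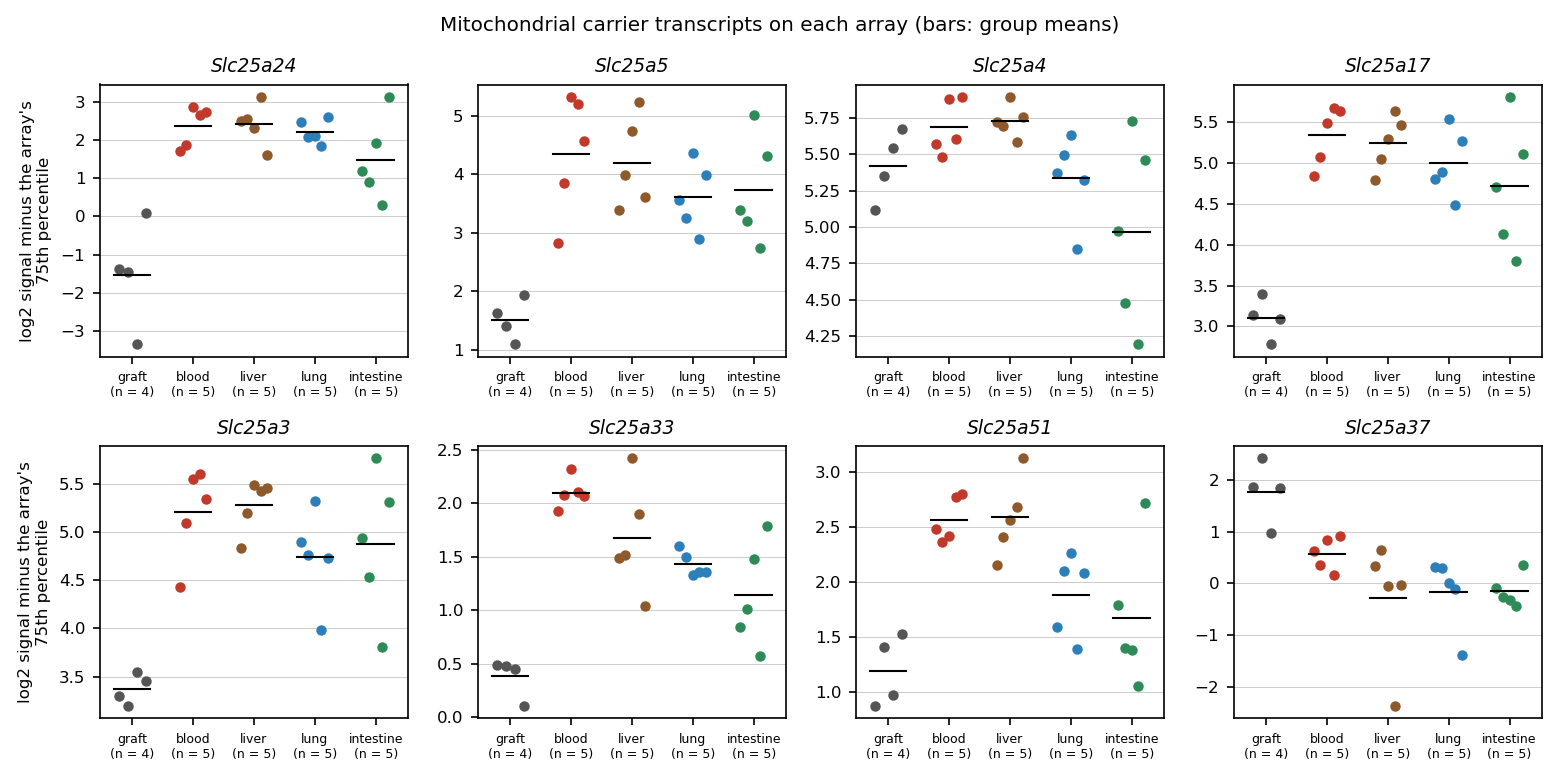
Level of 8 carriers on every array (log2 processed signal minus the 75th percentile of the array); points are arrays, coloured by group, and bars are group means (graft n = 4, other groups n = 5). Slc25a24, Slc25a5, Slc25a17, Slc25a3 and Slc25a33 lie above the graft on all 20 day 4 arrays, Slc25a37 lies below it on all 20, and Slc25a4 and Slc25a51 overlap with it.

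The cofactor carriers Slc25a17 and Slc25a51 rose. Slc25a17 transports coenzyme A, FAD and NAD into peroxisomes. Its graft levels were 3.15, 3.40, 2.78 and 3.09, and its day 4 levels ran from 3.80 to 5.81 with a median of 5.09. All day 4 arrays lay above the graft, and the difference was 1.97 ± 0.26 (limma adjusted p = 2.08e-06). The site order was blood 5.34 ± 0.37, liver 5.25 ± 0.33, lung 5.00 ± 0.41 and intestine 4.71 ± 0.80, and no pair of sites was called.

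Slc25a51 imports NAD. It rose by 0.98 ± 0.23 (adjusted p = 0.00123), on 16 of 20 arrays above the graft, by the probe used, and the call ended when arrays were scaled to the median of detected probes (0.44, adjusted p = 0.058). Its other probe gave 0.08 ± 0.38 (adjusted p = 0.859). Slc25a16 and Slc25a42, both linked to coenzyme A, were not detected.

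The pyrimidine nucleotide carrier Slc25a33 supplies nucleotides for mitochondrial DNA and RNA. Graft levels were 0.49, 0.48, 0.45 and 0.11, with graft 4 the lowest. Day 4 levels ran from 0.57 to 2.42 with a median of 1.51 and did not overlap with the graft. The difference was 1.20 ± 0.20 (limma adjusted p = 4.02e-05), and 0.66 when scaled to the median of detected probes. A dimmer probe of the gene was above background on 5 of 24 arrays and was not tested; its mean was -0.37 ± 0.14 (SD, n = 4) in the graft, -1.04 ± 0.24 for blood and -0.53 ± 0.49 for intestine (n = 5 each), the other way round from the tested probe. It is also 1 of the 2 carriers that differed between sites, described further on.

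Slc25a1 exports citrate, from which the cytosol makes acetyl-CoA for lipids and histone acetylation. It was well above background on 0 of 4 graft, 3 of 5 blood, 5 of 5 liver, 2 of 5 lung and 5 of 5 intestine arrays. Graft levels of -2.01, -1.73, -1.52 and -2.48 are therefore only bounds. Measured against the lowest signal that counted as above background, it was at least 1.50-fold higher on day 4, at least 1.51-fold in blood, 1.92-fold in liver and 1.87-fold in intestine, with no bound in lung. The limma adjusted p for day 4 against graft (2.1e-05) rests on the graft levels below background. The probe also passed the signal filter through day 4 arrays alone, so this p is no independent support. Lung 3 (-2.19) was the 1 day 4 array that overlapped with the graft. Slc25a11, the oxoglutarate carrier that trades malate, had graft levels of 4.68, 5.30, 6.05 and 4.86 and day 4 levels from 4.86 to 6.22, and was not called (0.21 ± 0.25, adjusted p = 0.48, with the sign turned under 3 of the 4 other treatments plotted). Slc25a10 and Slc25a21, for dicarboxylates and oxoadipate, were not detected.

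Slc25a12 and Slc25a13 encode the aspartate/glutamate carriers of the malate-aspartate shuttle, which brings electrons of NADH into mitochondria. Slc25a12 rose by 0.93 ± 0.33 (limma adjusted p = 0.0195) and Slc25a13 by 0.74 ± 0.17 (adjusted p = 0.000849). At single sites Slc25a12 was called in blood (1.48) and liver (1.32) and not in lung (0.57) or intestine (0.36). Its call ended under 5 alternatives, among them quantile normalisation (0.41, adjusted p = 0.172) and leaving out graft 3 (0.82, adjusted p = 0.0751). That of Slc25a13 ended when arrays were scaled to detected probes (0.33 and 0.20). With normexp background Slc25a13 was 0.34. The log2 ratio of Slc25a12 to Slc25a13 differed by 0.19 (exact permutation test, two-sided, p = 0.554), and by -0.29 after quantile normalisation. Slc25a14, an uncoupling protein-like carrier, rose by 1.01 ± 0.29 (adjusted p = 0.0048), and its call ended with the same 2 scalings (0.60 and 0.47).

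**Figure D4:**
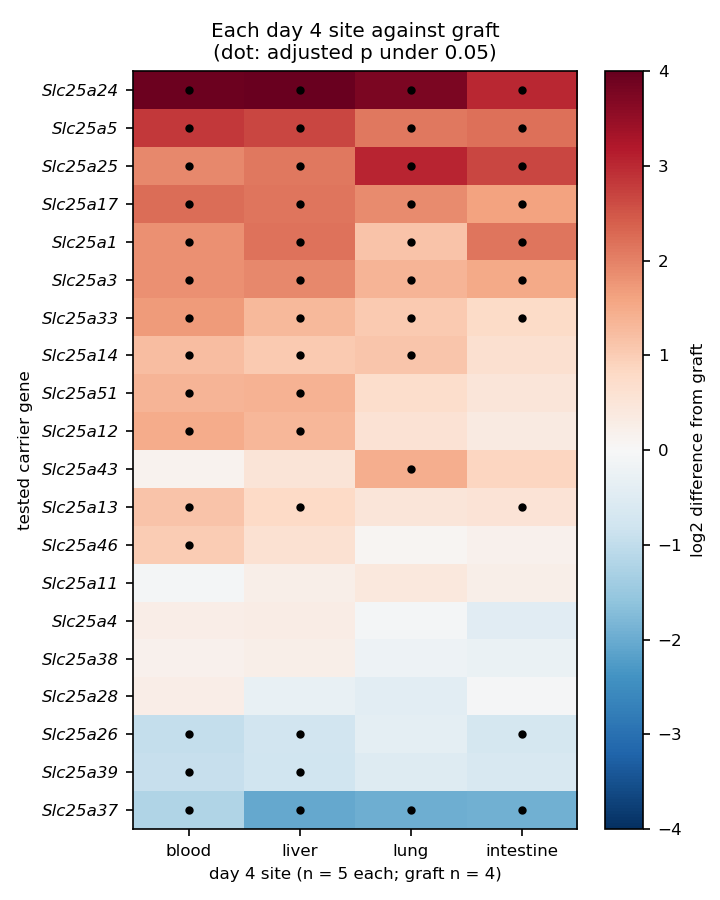
Log2 difference of each day 4 site from the graft for 20 of the 21 tested carriers (colour; red higher, blue lower), with a dot where the adjusted p was under 0.05. All 4 columns share the same 4 graft arrays. Slc25a24 lies between 3.02 and 3.96, against a graft where 1 of 4 arrays was above background, and Slc25a43 has 1 dot, in lung.

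Iron and heme carriers went the other way or were not called. Slc25a37 and Slc25a28 encode mitoferrin 1 and 2, which bring iron into the matrix, the first mainly in red cell precursors and the second in other cells. Slc25a37 (chr14:69860020-69860079, - strand, mm9) had graft levels of 1.86, 2.41, 0.98 and 1.84. Day 4 levels ran from -2.36 to 0.91 with a median of 0.08, and all 20 lay below every graft array. The difference was -1.78 ± 0.37 (limma adjusted p = 0.000356), and site means were 0.58 ± 0.32 for blood, -0.29 ± 1.20 for liver, -0.17 ± 0.70 for lung and -0.15 ± 0.31 for intestine. It was well above background on 4 of 4 graft and 14 of 20 day 4 arrays, and with normexp background the difference was -0.99. The other probe, also on chromosome 14, had a difference of -0.51 ± 0.22 (adjusted p = 0.0537) and was called in blood alone. Slc25a28 was not called (-0.12 ± 0.27, adjusted p = 0.716; 0.05 with normexp background), with graft levels of 1.23 to 1.86 and day 4 levels of 0.39 to 2.20.

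The log2 ratio of Slc25a37 to Slc25a28 was 0.63, 0.84, -0.33 and -0.02 in the 4 graft samples. On day 4 it ran from -2.95 to -0.49 with a median of -1.36, on 20 of 20 arrays below every graft array. The difference, for a pair chosen after the data were examined, was -1.66 (exact permutation test, two-sided, p = 0.000188, adjusted p = 0.000376). With normexp background it was -1.04. Blood was -1.19, liver -1.50, lung -1.23 and intestine -1.61 on average. The fall of the ratio was present at each site with this probe of Slc25a37. The probe was well above background on 5 of 5 blood, 4 of 5 liver, 2 of 5 lung and 3 of 5 intestine arrays. No ratio was computed with the other probe, whose levels overlapped: 0.10 to 0.36 in the graft and -0.27 to 0.49 in lung.

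**Figure D5:**
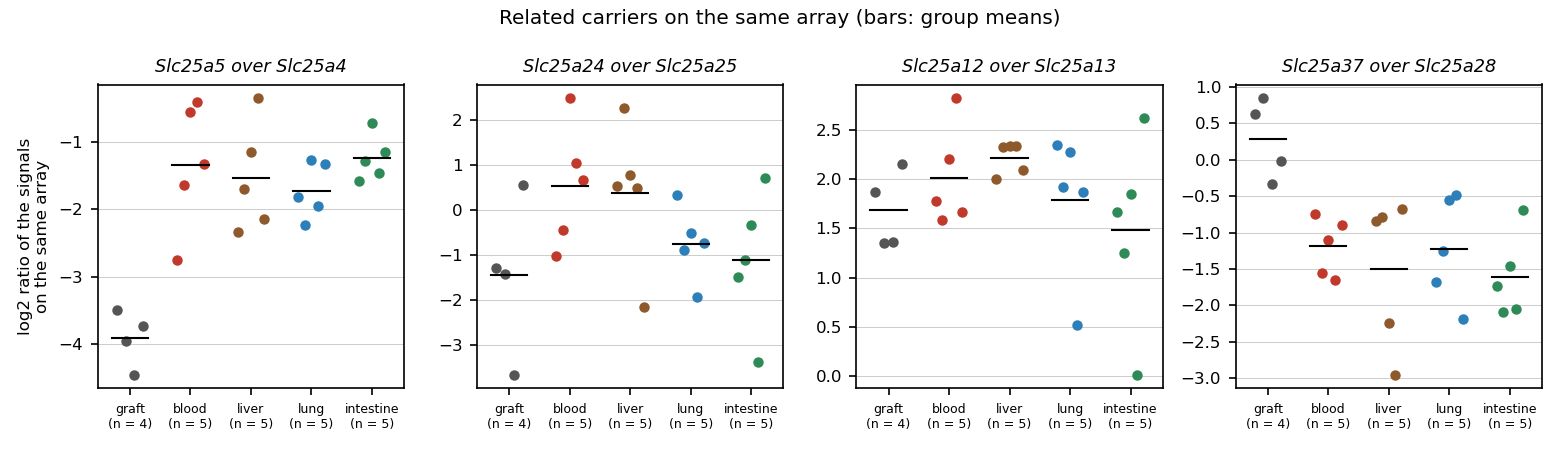
Log2 ratio of the signals of 2 related carriers on the same array, for 4 pairs; points are arrays, bars are group means (graft n = 4, other groups n = 5). Slc25a5 over Slc25a4 lies above the graft, and Slc25a37 over Slc25a28 below it, on all 20 day 4 arrays; the other 2 ratios overlap with the graft.

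Genes of other blood cells were measured beside Slc25a37. The summed signal of 8 erythroid genes, in units of each array's 75th percentile, was 11.0, 391, 20.05 and 95.7 in graft 1 to 4, where Slc25a37 was 1.86, 2.41, 0.98 and 1.84. On day 4 it ran from 0.99 to 75.8, the highest in lung 3, where Slc25a37 was 0.004. Graft 2 was the highest graft array for both, and their correlation over arrays was not computed. Hba-a1, Hba-a2 and Hbb-b1 were tested and lower (-3.95, -5.85 and -4.87), while Epb4.2 was well above background on 0 of 4 graft arrays. The summed signal of 6 neutrophil and monocyte genes was 372 to 466 in the graft and 34.5 to 193 on day 4, and that of 6 B cell genes 183 to 232 against 2.09 to 14.1. The 8 CD8 T cell genes summed to 283 to 446 and 204 to 714. The part of these cells in the fall of Slc25a37, or in any other difference from the graft, was not tested.

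Slc25a38 imports glycine for the first step of heme synthesis. It had graft levels of 2.83, 2.79, 3.38 and 3.50 and day 4 levels from 2.21 to 3.93, and was not called (-0.01 ± 0.25, limma adjusted p = 0.975). It was called lower after quantile normalisation (-0.50, adjusted p = 0.0303) and when scaled to the median of detected probes (-0.55), and it had the opposite sign with normexp background (0.21).

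Slc25a39, an importer of glutathione, had graft levels of 0.45, 0.41, 0.38 and 0.25 and day 4 levels from -1.19 to 0.47 with a median of -0.33. It lay below every graft array on 19 of 20 arrays, lung 4 being the exception. The difference was -0.72 ± 0.21 (limma adjusted p = 0.00631), -0.37 with normexp background and -1.27 when scaled to the median of detected probes. It was well above background on 4 of 4 graft arrays and 15 of 20 day 4 arrays, so the lower levels were close to background. Its homologue Slc25a40 was detected on 1 array.

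Slc25a26 imports S-adenosylmethionine, the methyl donor for mitochondrial RNA and protein. Its graft levels were 0.28, 0.16, 0.12 and 0.66, and its day 4 levels ran from -1.28 to 0.21 with a median of -0.38, below every graft array on 19 of 20. The difference was -0.71 ± 0.20 (limma adjusted p = 0.00533), and the call ended with normexp background (-0.25, adjusted p = 0.056). Its detected probe is shown because it holds the family's signature, proline, any residue, an acidic residue, 2 residues and a basic residue, as codons (capitals). It lies at chr6:94548392-94549185 on mm9, + strand, across an intron, and is the 1 member probe of 58 with such codons, 1.72% against 1.50% of all gene probes.
Slc25a26 probe: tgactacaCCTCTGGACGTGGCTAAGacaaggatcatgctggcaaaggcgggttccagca

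For the carriers as a whole, 6 of 21 lay above the graft on all 20 day 4 arrays (Slc25a3, Slc25a5, Slc25a17, Slc25a24, Slc25a25 and Slc25a33), against 11.1% of all tested probes. Of these, Slc25a24 passed the signal filter through day 4 arrays alone, and day 4 levels decided which probe stood for Slc25a25. Slc25a37 was the 1 of 21 that lay below on all 20, against 6.33% of all tested probes. The other genes that were not called were Slc25a43, a carrier of unsettled substrate, and Slc25a46, which shapes mitochondrial cristae and fission. Slc25a43 differed by 0.74 ± 0.44 (limma adjusted p = 0.158) and ran from 1.91 to 4.41 in the graft; without graft 3, the highest, it was called (1.22, adjusted p = 0.0346). It was called in lung (1.44, adjusted p = 0.0406). Slc25a46 differed by 0.48 ± 0.29 (adjusted p = 0.17) and was called in blood (1.03, adjusted p = 0.0187); its difference changed sign under 2 of the 4 other treatments plotted.

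Site by site, all against the same graft arrays, 13 carriers were called higher and 3 lower for blood, 12 and 3 for liver, 9 and 1 for lung, and 9 and 2 for intestine. Over all tested probes 57.8% were called for blood (34.4% higher, 23.4% lower), 52.1% for liver (34.2% and 17.9%), 37.5% for lung (24.9% and 12.6%) and 35.5% for intestine (21.9% and 13.5%). The carriers' median difference was 1.24 for blood, 1.05 for liver, 0.66 for lung and 0.56 for intestine, beside 0.22, 0.31, 0.13 and 0.06 for all tested probes. The higher calls in lung numbered 5 when arrays were scaled to detected probes.

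Direct comparison of the day 4 sites asked whether the carriers differed by the organ the cells were taken from. Of the 6 pairs of sites, intestine against blood held the calls: 2 of 21 carriers were lower in intestine, where 8.83% of all tested probes were, and 0 were higher (1.63%; 10.5% in either direction). The other 5 pairs had 0 called carriers in limma at an adjusted p under 0.05, where 0.889% of all probes were called for lung against blood, 0.286% for intestine against lung, 0.279% for lung against liver and 0 for the other 2 pairs. At an unadjusted p under 0.05 these pairs held 10 carriers for lung against blood, 4 for intestine against liver, 3 for lung against liver, 2 for intestine against lung and 0 for liver against blood. At least 1 pair was called for 11.1% of all probes. A share of 2 in 21 is close to the background, and is no result about carriers as a group.

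Slc25a33 had levels of 1.93, 2.07, 2.32, 2.10 and 2.07 in blood and 0.85, 1.01, 1.48, 0.57 and 1.78 in intestine, where every intestine array lay below every blood array. Liver gave 1.67 ± 0.52 and lung 1.43 ± 0.12. The difference between intestine and blood was -0.96 ± 0.24 (limma adjusted p = 0.0187; 0.0403 with slide as a block). Within each of the 5 slides intestine was lower, by -1.08, -1.06, -0.85, -1.53 and -0.29. Without lung 4 and intestine 4 the difference was -0.82 (adjusted p = 0.0483), and the call ended in 7 of 39 alternatives.

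Slc25a51 had levels of 2.48, 2.37, 2.42, 2.78 and 2.80 in blood and 1.79, 1.40, 1.38, 1.06 and 2.72 in intestine, where intestine 5 lay within the blood range. The difference was -0.90 ± 0.27 (limma adjusted p = 0.039; 0.0451 with slide as a block). By this probe, intestine was lower on all 5 slides, by -0.69, -0.97, -1.03, -1.72 and -0.08. The call ended in 14 of 39 alternatives, among them the fit without lung 4 and intestine 4 (-0.74, adjusted p = 0.0953) and each fit without blood 2, 3, 4 or 5. The other tested probe of Slc25a51 was not called between these sites and did not show the fall. Its levels were -0.22, 0.41, 0.47, 1.22 and 0.87 in blood and 0.46, 0.85, 0.94, 0.09 and 1.21 in intestine. The summed signal of 6 intestinal epithelial genes was 1.14 to 128 in intestine and 0.84 to 2.52 in blood. In intestine 1 to 5 it was 7.15, 67.6, 2.62, 128 and 1.14. That of 5 lung epithelial genes was 2.84 to 170 in lung and 0.97 to 2.20 in blood. That of 7 macrophage genes was 1.63 to 98.5 in intestine, 3.71 to 133 in lung, 3.30 to 6.48 in liver and 3.73 to 11.9 in blood, with intestine 1 and 2 at 73.3 and 98.5. The 8 CD8 T cell genes summed to 322, 232, 714, 204 and 504 in intestine 1 to 5, and to 399 to 560 in blood. The part of other cells in the site differences was not tested.

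Promoters of all members were searched for short motifs, on both strands, from 250 bases before to 50 after the start of each RefSeq gene (GRCm38.p6). A window was found for 36 member genes, 16 of them tested. The E-box CACGTG, bound by MYC, MAX and USF proteins among others, was in 7 of the 36, against 8.09% of all genes. In 4 tested genes, Slc25a1, Slc25a13, Slc25a14 and Slc25a33, all called higher, it is printed in capitals. The cAMP response element TGACGTCA was in Slc25a25 and Slc25a36 (2.03% of all genes), and the first is shown because Slc25a25 is known to respond to cAMP and calcium signals. A match is only a description of these letters.
Slc25a1 promoter, chr16:17928390-17928469, - strand: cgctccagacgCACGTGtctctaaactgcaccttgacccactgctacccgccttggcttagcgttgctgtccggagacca
Slc25a13 promoter, chr6:6217254-6217333, - strand: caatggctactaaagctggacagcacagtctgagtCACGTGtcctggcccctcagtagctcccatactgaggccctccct
Slc25a14 promoter, chrX:48623359-48623438, + strand: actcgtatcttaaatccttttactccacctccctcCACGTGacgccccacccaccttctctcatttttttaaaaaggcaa
Slc25a33 promoter, chr4:149774268-149774347, - strand: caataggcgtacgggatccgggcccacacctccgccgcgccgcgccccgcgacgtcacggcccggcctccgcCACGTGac
Slc25a25 promoter, chr2:32424172-32424251, - strand: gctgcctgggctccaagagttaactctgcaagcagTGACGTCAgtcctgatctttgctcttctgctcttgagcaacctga

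The ETS core CCGGAAG was in 7 of 36 windows (9.93% of all genes), among them Slc25a3, Slc25a17 and Slc25a25, which rose, and Slc25a4 and Slc25a38, which were not called. The core motif of NRF1 was in Slc25a3 and Slc25a31 (5.19% of all genes). The STAT motif TTCNNNGAA was in Slc25a36 and Slc25a54 (9.55%), and the ATF4 core TGATGNAA was in 0 of 36 (4.51%).

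Other transport genes of mitochondria were read from lists for context. Of 3 tested relatives of the family under other names, the outer membrane proteins Mtch1 (1.64) and Mtch2 (0.90) were higher, the second in 4 of 6 treatments of the signal, and the uncoupling protein Ucp2 was not called (0.32 ± 0.40, limma adjusted p = 0.508). Of 4 outer membrane genes, the voltage-dependent anion channels Vdac1 (1.51), Vdac2 (1.23) and Vdac3 (1.097) were higher in 6 of 6 treatments, while Tspo was not called. Of 14 inner membrane transport genes, 8 were higher and 2 lower (5 to 9 and 1 to 2 over the other treatments of the signal), where 33.8% of all tested probes were higher and 21.4% lower. Mpc1 (1.73), a subunit of the pyruvate carrier, and Letm1 (1.17), an ion exchanger, were among those higher. Over the other treatments of the signal, 22.1% to 35.9% of all tested probes were higher and 16.6% to 40.6% lower.

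Of 25 protein import genes, 16 were higher and 3 lower (12 to 17 and 3 to 4 over the other treatments), beside the same 33.8% and 21.4% of all tested probes. The shares of all tested probes over the other treatments are those given for the inner membrane genes. Timm23 (2.75), the inner membrane channel through which most presequence proteins pass, Timm50 (1.97) and Tomm40 (2.32) were higher. Dnajc19, a co-chaperone of the import motor, fell by 3.83 ± 0.39 (limma adjusted p = 5.4e-08). The median difference was 0.92 for the import genes and 0.81 for the inner membrane genes, beside 0.93 for the carriers. The lists were not tested against each other.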

How the data were processed

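Each array came as a scanner output file of Agilent Feature Extraction (version 10.7 per the submitters' processing notes, 9.5.1.1 per the file headers). The deposited processed signal is an intensity that was background-subtracted and spatially detrended, per the file headers, and not normalised between arrays. Probe coordinates are on mm9. A deposited table of log2 values matched quantile-normalised, median-centred log2 signal (lowest correlation 0.99977) and entered as an alternative.

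Control spots and spots marked non-uniform were left out, spots of a probe were averaged on the log2 scale, and each array's 75th percentile was subtracted. The model was fitted with limma 3.58.1 in R 4.3.3 (1 mean per group, 11 contrasts) and tested on simulated data. Exact permutation tests used scipy 1.17.1. The 4 ratios were chosen after the data were examined.

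The members and lists were chosen with earlier results of these data known. Values are given for members called in 1 direction at each of the 4 sites, called lower on day 4, called between sites, or among the 3 brightest probes. Other members are named by role; at most 4 called genes of each other list are named.

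Replicate numbers were those of the labels; for day 4 arrays they equal the slide. Deviations of same-numbered day 4 arrays correlated from -0.38 to 0.58 (median 0.14, 30 pairs), so the numbers were not taken to pair samples. Alternatives covered scaling, background, filter, array weights, samples fitted, blocks, spot flags, and arrays left out. Gene names and promoters came from RefSeq (GRCm38.p6); protein sequences were not used here. Some genes that enter the counts are not reported here by name.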

Additional observations from a re-analysis of the deposited data

Results flagged for a closer look

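Among 105 groups of 4 or 5 arrays of tested carriers, 4 held an array far from the others by Dixon's criterion, where chance gives about 1 in 20. Slc25a28 was 1.37 in blood 1 and 1.81 to 1.94 in the other blood arrays. Slc25a33 was 0.11 in graft 4 (0.106) and 0.45 to 0.49 in the other graft arrays. Slc25a37 was -2.36 in liver 4 against -0.04 to 0.65, and -1.39 in lung 5 against -0.10 to 0.32. In both of these the low array widened the gap to the graft.

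Slc25a33 and Slc25a51 were flagged because, by the probe used for each, their difference from the graft was not the same in intestine and blood. Intestine minus blood was -0.96 (limma adjusted p = 0.0187) and -0.90 (limma adjusted p = 0.039), lower on 5 of 5 slides in each case. The other probe of each gene is described above.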

How the results depend on the processing

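Of the 21 tested carriers, 10 kept their sign and their side of the threshold for day 4 against graft under all alternatives that gave a value. A further 2, Slc25a11 and Slc25a28, were never called and changed sign. Slc25a4 turned to -0.54 (limma adjusted p = 0.00295) when arrays were scaled to the median of detected probes; the cause was not tested. With that scaling 5 carriers were lower on day 4, 5 higher and 5 lower in lung, 5 lower in intestine, and 0 differed between sites. Scaled to the 75th percentile of detected probes, 5 were higher and 3 lower in lung, 4 lower in intestine and 0 differed between sites. The shares of all tested probes were then 14.3% higher and 29.8% lower in lung, and 23.1% lower in intestine. Quantile normalisation and the deposited log2 table each gave 3 lower in lung and 1 between sites, and normexp 1 lower in intestine. Over all tested probes, 19.1% were lower in lung with each of the former, and 9.65% lower in intestine with normexp. Requiring detection on all arrays left 14 genes, of which 0 were lower on day 4 or at any site and 5 higher in lung. Of all probes kept by that filter, 12.7% were lower on day 4 and 32.0% higher in lung. Without a filter 1 was lower in intestine and 0 differed between sites. Array weights gave 2 lower in lung, 4 lower in intestine and 10 between sites. Fitting only the groups compared gave 1 lower in intestine and 0 between sites. Slide as a random block gave 1 lower in intestine and 5 between sites. Without lung 4 and intestine 4, 2 were lower in lung and 1 differed between sites. Counts for the remaining alternatives are given without an all-probe share and are no result about carriers as a group.

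With the replicate number as a random block, 12 carriers were higher and 3 lower on day 4, as without it, and 4 in place of 2 differed between sites. Its other counts were those without the block.

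Leaving out 1 array at a time gave 12 higher and 3 lower on day 4 in every case, but not always the same genes. Without graft 3, Slc25a12 lost its call (limma adjusted p = 0.0751) and Slc25a43 gained one (limma adjusted p = 0.0346). At single sites these fits gave 13 higher and 2 to 3 lower in blood, 11 to 12 and 2 to 3 in liver, 7 to 10 and 1 to 2 in lung, and 7 to 9 and 1 to 3 in intestine. Carriers that differed between sites numbered 0 to 7: 7 without intestine 3 or 5, 6 without lung 1, 5 without lung 4, 1 without blood 2, blood 5 or intestine 1, and 0 without blood 3, intestine 2 or intestine 4. Lower calls in intestine were 1 without graft 1, graft 4, intestine 1 or intestine 5, and in lung 2 without lung 4. Signal over background limits Slc25a1, Slc25a24, Slc25a26, Slc25a37 and Slc25a39, which were not detected on all arrays. Slc25a14 and Slc25a25 were each detected on 23 arrays.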
